A study of Mus musculus with 2 samples.

Results

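The 9 complement genes described here were C3, C4b, Cfb, Cfd, Serping1, C1qa, C1qb, C1qc and Cd55, taken by symbol from the 19070 genes of the deposited count files. Their transcripts were read in uterine endometrial cells of pregnant mice, with 1 library from Erbb3 f/f females (the control) and 1 library from Erbb3 d/d females, whose Erbb3, a receptor of the ErbB family, was deleted in the stroma according to the design text. Both were taken on day 3 of pregnancy, at 9 AM by their titles. The Cre line behind the deletion, the ages of the females, the number of females per library and any pooling were not given in the sources used here, and the digits that close the 2 library titles are unexplained. Counts came from a probe assay (Chromium Flex) on fixed, dissociated tissue. In it, pairs of probes are joined on the transcript and counted as unique molecular identifiers (UMIs). With 1 library per genotype no test was possible, and each difference is one between 2 preparations, with genotype and preparation not separable.

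Complement is a cascade of plasma proteins that coats and lyses microbes and cells. The classical arm starts when C1q, a protein of 3 kinds of chain encoded by C1qa, C1qb and C1qc, binds its target and the attached proteases cut C4 and C2. The alternative arm runs on C3 itself with factor B (Cfb), which factor D (Cfd) cuts, and both arms meet at the cleavage of C3. Serping1 encodes C1 inhibitor, a secreted serpin that stops the C1 proteases, and Cd55 encodes decay-accelerating factor, a membrane protein that takes apart the C3-cleaving enzymes. In rodents C3 is a known secretory product of the oestrogen-stimulated uterine epithelium, and tissue macrophages are a main source of C1q.

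By the GENCODE M21 annotation of GRCm38, C3 lies on chromosome 17 from 57203970 to 57228136, C4b on chromosome 17 from 34728380 to 34743882 and Cfb on chromosome 17 from 34856374 to 34862518. The 3 C1q genes are close neighbours on chromosome 4, C1qb from 136880129 to 136886187, C1qc from 136889804 to 136893065 and C1qa from 136895917 to 136898803. Serping1 lies on chromosome 2 from 84765387 to 84775444, Cd55 on chromosome 1 from 130439027 to 130462744 and Cfd on chromosome 10 from 79890853 to 79892655. All are protein-coding, and all but Cfd are on the minus strand. The RefSeq promoter table held 5 of the 9 genes. The 250 bases before the RefSeq start are shown for 2 of them because the results turn on them, C3 for the split between mesothelial and epithelial cells and C1qb for the macrophage pattern. The windows (GRCm38.p6, minus strand, read 5′ to 3′) are chr17:57228137-57228386 for C3 and chr4:136886201-136886450 for C1qb. Capitals mark, in C3, the letters GGTCA (the half-site of an estrogen response element) and TTGCNNAA (a C/EBP pattern), and, in C1qb, GAGGAA (the core bound by PU.1, a macrophage transcription factor), each searched on both strands.
C3: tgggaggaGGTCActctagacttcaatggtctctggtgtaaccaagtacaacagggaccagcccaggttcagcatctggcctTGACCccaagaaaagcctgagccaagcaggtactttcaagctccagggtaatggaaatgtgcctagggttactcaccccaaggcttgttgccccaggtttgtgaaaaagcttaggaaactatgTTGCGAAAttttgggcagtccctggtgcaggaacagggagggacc
C1qb: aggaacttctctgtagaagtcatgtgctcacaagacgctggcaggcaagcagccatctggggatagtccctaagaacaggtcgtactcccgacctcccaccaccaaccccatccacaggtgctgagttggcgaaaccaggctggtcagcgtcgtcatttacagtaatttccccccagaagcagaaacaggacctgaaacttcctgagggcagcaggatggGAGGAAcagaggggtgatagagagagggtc
The C3 window held the half-site letters 2 times and the C/EBP letters 1 time, starting 45 bases before the start site. Of 32851 windows of the same length in the table, 35.2% held GGTCA, 9.56% held TTGCNNAA and 23.3% held GAGGAA on either strand. The C1qb window held GAGGAA 1 time, starting 30 bases before the start site, and also 1 copy of GGTCA, left in lower case. The full palindrome GGTCANNNTGACC was in neither window and in 0.0639% of all windows. These matches are descriptions of letters and were not tied to the counts.

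Depth was 6819591 UMIs over 5783 barcodes in f/f, and 2866862 UMIs over 2125 barcodes in d/d. Barcodes with a mitochondrial share above 10% were left out, 280 in f/f (4.84% of barcodes, with 19.1% of UMIs) and 295 in d/d (13.9%, with 40.3% of UMIs), which leaves 5503 and 1830 cells with medians of 809 and 764.5 UMIs. No full barcode was shared by the libraries, and 158 shared their first 16 bases. Levels below are in CPM, a gene's UMIs per 1000000 UMIs of that class in that library, with an exact 95% Poisson interval that covers counting error only. They are compared between classes of cells and not between genes, since the number of probes per gene was not given. Erbb3 itself gave 5 UMIs in f/f and 1 UMI in d/d stromal-like cells, too few to check the labelled deletion, and 78.3 against 38.1 CPM in epithelial-like cells. Leiden clusters, made without the 9 genes and named from other markers, gave 2857 and 1062 epithelial-like cells (f/f and d/d in this order throughout), 1142 and 200 stromal-like, 374 and 206 mesothelial-like, 264 and 75 endothelial-like and 258 and 122 myeloid-like cells. Mesothelium is the outer covering of the uterus, and mesothelial-like cells made up 6.80% and 11.3% of cells in libraries labelled as endometrium. In them the mesothelial gate markers (Upk3b, Msln and 4 others) stood at 1958 and 1273 CPM, against 9.97 and 32.9 in epithelial-like cells. The 10 stromal gate markers were also high in mesothelial-like cells, at 5101 and 4677 CPM. Gated cell by cell on such markers, 31 of 374 and 9 of 206 of these cells passed as mesothelial, and 172 and 96 as stromal.

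C3, the component on which all arms converge, was highest in mesothelial-like cells and not in the epithelium. It reached 1226 CPM (445 UMIs, 1114 to 1345) in f/f and 763 CPM (145 UMIs, 644 to 898) in d/d mesothelial-like cells. These cells held 64.0% (f/f) and 49.7% (d/d) of all C3 UMIs. In f/f the level was 23.6 times that of epithelial-like cells (19.5 to 28.6) and 49.7 times that of stromal-like cells (32.7 to 79.2). In d/d the corresponding ratios were 7.41 (5.70 to 9.66) and 22.1 (9.27 to 69.2). C3 was seen in 50.5% (f/f) and 35.9% (d/d) of mesothelial-like cells, and in 40.1% and 25.9% after each cell was thinned to 500 UMIs, which left 372 and 205 cells. In epithelial-like cells the unthinned shares were 3.92% and 6.03%. The most loaded 5% of mesothelial-like cells carried 31.2% and 38.6% of their C3 UMIs, up to 22 and 12 in a cell, so the signal was spread over many cells in both libraries.

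**Figure D1:**
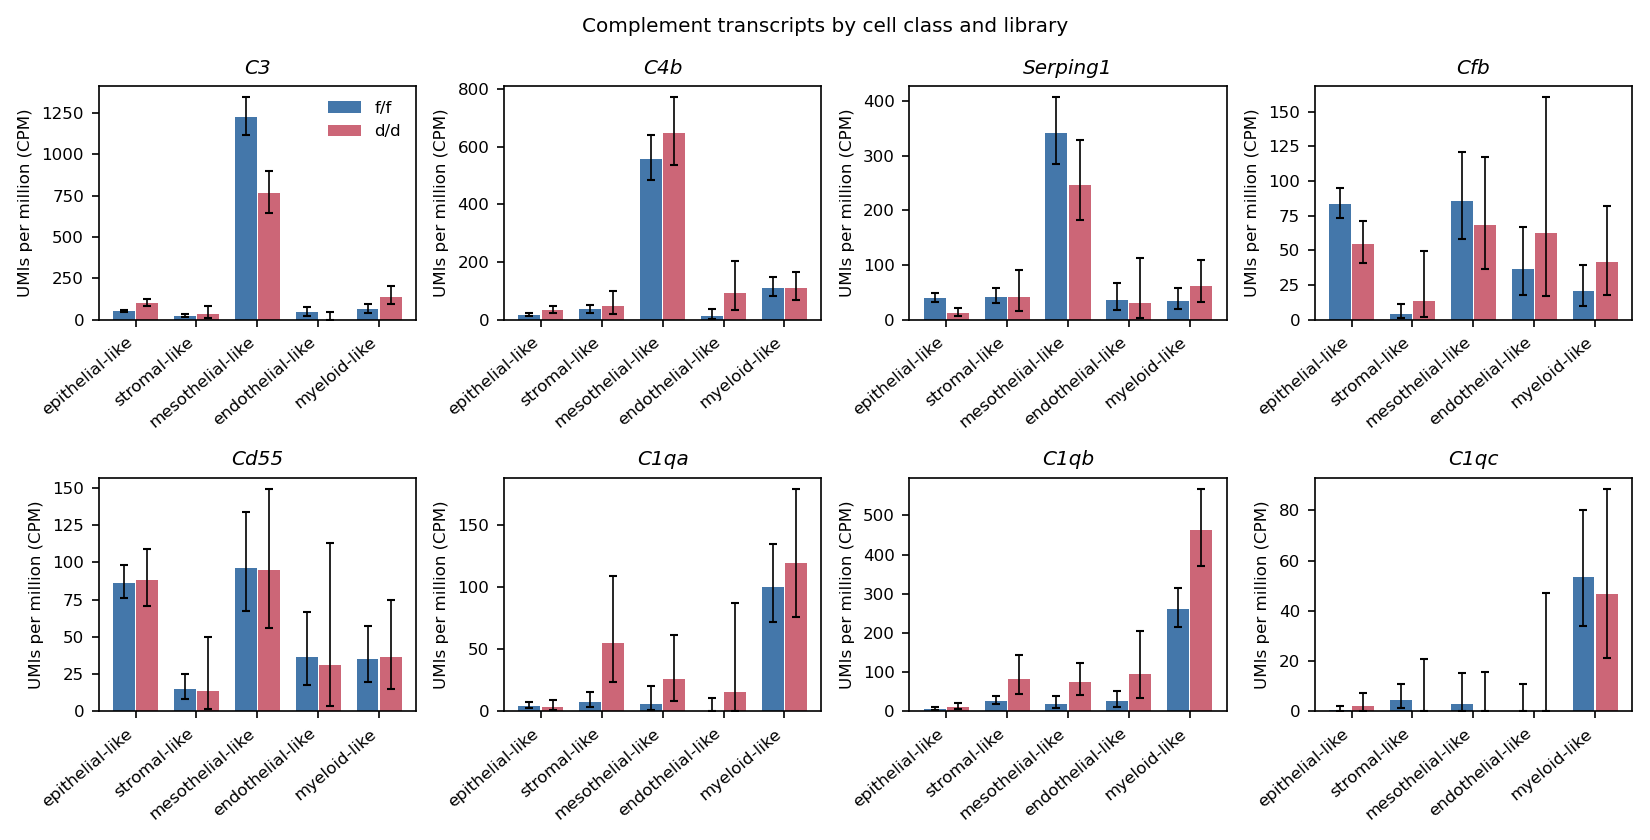
CPM (vertical axis, linear, its own scale in each panel) of 8 complement genes in 5 cell classes of the f/f (blue) and d/d (red) library. Bars are 1 library each and error lines are exact 95% Poisson intervals for counting error, or, for a count of 0, the level of 3 counts. C3, C4b and Serping1 peak in mesothelial-like cells, the C1q genes in myeloid-like cells, and Cfb and Cd55 stand at like levels in epithelial-like and mesothelial-like cells. Cfd is not drawn, as it had 0 f/f and 3 d/d UMIs.

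C4b, which encodes a secreted component of the classical arm, and the gene of the C1 inhibitor had the same leading class as C3. C4b stood at 559 CPM (203 UMIs, 485 to 641) in f/f and 647 CPM (123 UMIs, 538 to 772) in d/d mesothelial-like cells, which held 55.9% and 60.9% of its UMIs. Its next highest class was myeloid-like, at 111 CPM in f/f (48 UMIs) and 109 CPM in d/d (21 UMIs). C4b has a near-identical copy, C4a, which was looked for and was not in the count files, so probe signal from it cannot be told apart. Serping1 stood at 342 CPM (124 UMIs, 284 to 407) in f/f and 247 CPM (47 UMIs, 182 to 329) in d/d mesothelial-like cells. The other classes lay between 34.8 and 41.8 CPM for Serping1 in f/f, with overlapping intervals. In d/d they lay between 12.4 CPM (epithelial-like) and 62.3 CPM (myeloid-like, 12 UMIs).

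Cfb and Cd55 had a different distribution, with most of their UMIs in epithelial-like cells, which were 51.9% (f/f) and 58.0% (d/d) of all cells. Cfb stood at 83.3 CPM (234 UMIs, 73.0 to 94.7) in f/f epithelial-like cells and at 54.6 CPM (53 UMIs, 40.9 to 71.4) in d/d, and these cells held 74.3% and 63.9% of its UMIs. Mesothelial-like cells had 85.4 CPM (31 UMIs) and 68.4 CPM (13 UMIs), within the counting intervals of the epithelial-like levels. Endothelial-like cells had 36.4 CPM (10 UMIs) and 62.7 CPM (4 UMIs) of Cfb, and myeloid-like cells 20.9 CPM (9 UMIs) and 41.5 CPM (8 UMIs). In d/d the intervals of both overlapped the epithelial-like one. Stromal-like cells were lowest, with 4 and 2 UMIs of Cfb. Cd55 stood at 86.5 CPM (243 UMIs, 76.0 to 98.1) and 88.5 CPM (86 UMIs, 70.8 to 109) in epithelial-like cells, at 96.4 and 94.7 CPM in mesothelial-like cells and at 15.01 and 13.8 CPM in stromal-like cells. The membrane inhibitor was thus at like levels in the 2 lining tissues, while C3 differed between them more than 7-fold in each library. The near-identical copy of Cd55, Cd55b, gave 2 UMIs in each library over the 5 classes.

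The C1q genes were highest in myeloid-like cells in both libraries. C1qb stood at 262 CPM (113 UMIs, 216 to 315) in f/f and 462 CPM (89 UMIs, 371 to 569) in d/d myeloid-like cells, C1qa at 99.7 CPM (43 UMIs) and 119 CPM (23 UMIs), and C1qc at 53.3 CPM (23 UMIs) and 46.7 CPM (9 UMIs). These cells held 58.9% and 62.2% of C1qb UMIs. Cells gated on macrophage markers, of which 51 of 59 in f/f and 19 of 20 in d/d were in the myeloid-like cluster, had more C1qb, 583 CPM (29 UMIs) and 1049 CPM (19 UMIs). More cells of that cluster passed the stromal gate (85 of 258 and 38 of 122) than the macrophage gate, and its 10 stromal gate markers summed to 5467 and 5035 CPM against 1138 and 1075 CPM for the myeloid ones. Of all C1q UMIs in f/f myeloid-like cells, 24.0% were C1qa, 63.1% C1qb and 12.8% C1qc, and in d/d 19.0%, 73.6% and 7.44%, with overlapping exact binomial intervals for each gene. Outside the myeloid-like class C1qb was lower everywhere. It was 26.8 and 82.7 CPM in stromal-like, 19.3 and 73.6 in mesothelial-like, 25.5 and 94.0 in endothelial-like and 6.77 and 11.3 in epithelial-like cells. In all of these classes the d/d value was the higher, and so were 8 other myeloid markers (Tyrobp, Ctss and 6 others). Their summed level was 79.4 and 138 CPM in stromal-like, 38.6 and 132 in mesothelial-like, 83.7 and 125 in endothelial-like and 29.2 and 61.8 in epithelial-like cells. The part of such myeloid RNA in the C1q counts of these classes was not tested.

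**Figure D2:**
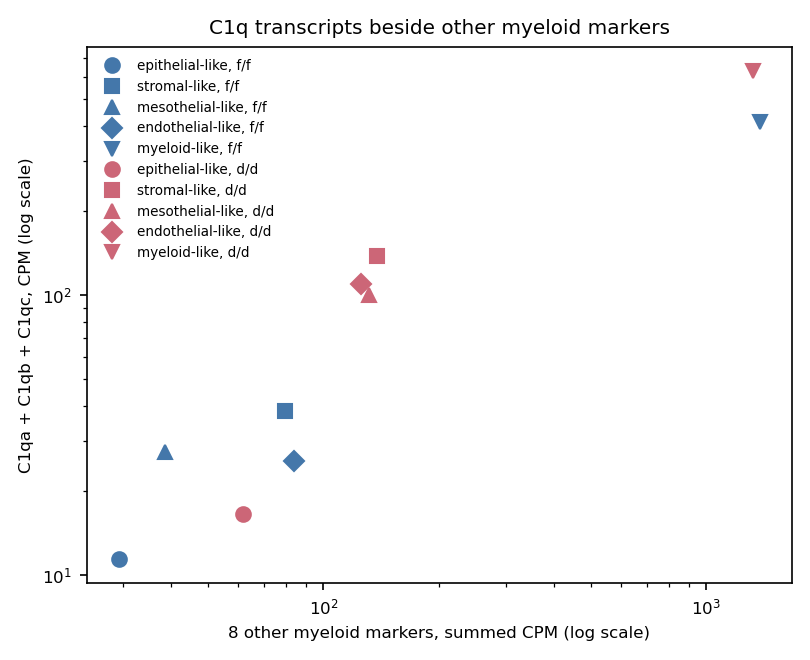
Summed CPM of C1qa, C1qb and C1qc (vertical, log scale) against the summed level of 8 other myeloid markers (horizontal, log scale), 1 point per cell class and library (blue f/f, red d/d). The myeloid-like points stand apart at the top right, and the d/d stromal-like, mesothelial-like and endothelial-like points lie higher on both axes than their f/f counterparts.

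Cfd, the protease that starts the alternative arm and a marker product of fat cells, was all but undetected. The f/f library had 0 UMIs, where 3 counts would be 0.544 CPM, and the d/d library had 3, 1 each in epithelial-like, stromal-like and unnamed cells. The left-out barcodes held 0 Cfd UMIs in both libraries. Of 6 fat-cell markers in the cells used, Adipoq had 0 and 2 UMIs, Lep 0 and 4, Cidec 0 and 4, Plin1 4 and 9 and Plin4 12 and 7, while Lipe, the gene of hormone-sensitive lipase, had 202 and 50. A low count for Cfd can also come from its probes, whose performance in this tissue was not given.

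Some C3 in a class can be RNA of other cells, so its levels were set beside those of 6 mesothelial markers (Upk1b, Muc16 and 4 others). These markers took no part in naming the classes. In stromal-like cells C3 stood at 2.01% and 4.52% of its mesothelial-like level and these markers at 2.55% and 4.31%. In epithelial-like cells C3 stood at 4.24% and 13.5% and the markers at 0.823% and 2.30%. These marker values rest on 34 and 25 UMIs. In myeloid-like cells C3 was at 5.30% and 18.4% and the markers at 3.15% and 11.6%. The part of such RNA in these C3 counts was not tested. Endothelial-like cells had 12 C3 UMIs in f/f (43.7 CPM) and 0 in d/d, where 3 counts would be 47.0 CPM, so a difference was not detectable at this depth.

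The 2 libraries were then compared class by class, among genes with at least 50 UMIs over both. In mesothelial-like cells C3 was lower in the d/d library, with a log2 ratio (positive where d/d is higher) of -0.68 (exact conditional 95% interval -0.96 to -0.41). C4b was near parity in the same cells, at 0.21 (-0.12 to 0.54). Serping1 was at -0.47 (-0.98 to 0.03) and Cd55 at -0.03 (-0.93 to 0.83), both with intervals that include no difference. None of these 4 members passed a 2-fold difference, which 3.91% of 3404 genes did, and their median was -0.25 against -0.03 over all genes. The 6 mesothelial markers apart from the naming list were at 1471 CPM in f/f and 1120 in d/d, so they too were lower in d/d, and their part in the C3 difference was not tested.

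In epithelial-like cells C3 was higher in the d/d library, at 52.0 CPM (146 UMIs, 43.9 to 61.1) in f/f and 103 CPM (100 UMIs, 83.8 to 125) in d/d, a log2 ratio of 0.99 (0.60 to 1.36). C4b was also higher, at 17.8 CPM (50 UMIs) and 32.9 CPM (32 UMIs), with a log2 ratio of 0.89 (0.20 to 1.56). Cfb was lower in d/d, by its levels above, with -0.61 (-1.07 to -0.18). Serping1 showed the largest difference of the 5 counted members, 40.2 CPM (113 UMIs, 33.2 to 48.4) in f/f against 12.4 CPM (12 UMIs, 6.38 to 21.6) in d/d, a log2 ratio of -1.70 (-2.70 to -0.84). Cd55 was alike, at 0.03 (-0.34 to 0.39). Serping1 was the 1 of 5 members past 2-fold, which 11.6% of 9146 genes passed, and the members' median was 0.03 against -0.02 over all genes. The 6 mesothelial markers were at 12.1 CPM (f/f) and 25.7 CPM (d/d) in epithelial-like cells (34 and 25 UMIs), and their part in the C3 and C4b differences was not tested.

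The epithelial-like class had a different make-up in the libraries. A cluster led by Slc5a11 and Slc51a (cluster 1) was 43.9% of the f/f epithelial-like cells but 1.79% of those in d/d, a cycling cluster led by Nusap1 and Prc1 (cluster 2) was 17.8% and 62.8%, and a cluster with Ltf, Muc4 and Alox15 (cluster 4) was 12.6% and 24.9%. Cluster 4, which carries Ltf, the oestrogen-induced lactotransferrin, had the highest C3 of the clusters with at least 50 cells in both libraries, at 184 CPM (56 UMIs) in f/f and 148 CPM (29 UMIs) in d/d, a log2 ratio of -0.31 (-1.01 to 0.36). It held 38.4% and 29.0% of epithelial-like C3 UMIs. In cycling cluster 2 C3 was 48.8 CPM (34 UMIs) and 86.8 CPM (58 UMIs), a log2 ratio of 0.83 (0.19 to 1.48). The 3 clusters of at least 50 cells in both libraries (2, 3 and 4) were also weighted equally. The log2 ratio of their mean C3 levels was 0.16, against 0.99 for the whole class unweighted. Clusters 1 and 10 are left out of it. Cluster 3, with 16 and 2 C3 UMIs (25.2 and 54.1 CPM), was at 1.10 (-2.06 to 3.19). This weighting was added after the data had been seen. C4b was at 25.9 CPM (18 UMIs) and 31.4 CPM (21 UMIs) in cluster 2, a log2 ratio of 0.28 (-0.70 to 1.27), and had 5 and 0 UMIs in cluster 4. A small cluster led by Chst10 and Cbs (cluster 10), 0.49% of the f/f epithelial-like cells and 5.84% of those in d/d, held 3 and 10 C4b UMIs, the latter 31.2% of the d/d class total, at 207 and 181 CPM (a log2 ratio of -0.20, -2.16 to 2.30). The C4b intervals of clusters 2 and 10 both included no difference.

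Serping1 was lower in d/d in both well-filled clusters, at 44.5 CPM (31 UMIs) and 13.5 CPM (9 UMIs) in cluster 2, a log2 ratio of -1.73 (-2.98 to -0.62), and at 45.9 CPM (14 UMIs) and 5.10 CPM (1 UMI) in cluster 4, a log2 ratio of -3.17 (-8.57 to -0.46). The inhibitor's lower level in d/d epithelium was therefore present within clusters, in small counts. Cfb was near parity in cluster 2, at 61.8 CPM (43 UMIs) and 56.8 CPM (38 UMIs). It was lower in d/d in cluster 4, at 167 CPM (51 UMIs) and 71.3 CPM (14 UMIs), a log2 ratio of -1.23 (-2.20 to -0.35). Cluster 1, nearly all f/f, held 54.7% of the f/f epithelial-like Cfb UMIs at 111 CPM. Cd55 was at 76.1 and 88.3 CPM in cluster 2 and at 134 and 91.7 CPM in cluster 4, with intervals of the ratio that include no difference. Among epithelial-gated cells, those with a UMI of a gland marker (72 in f/f, 7 in d/d) had 1 C3 UMI in each library, so gland C3 could not be compared at this depth.

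**Figure D3:**
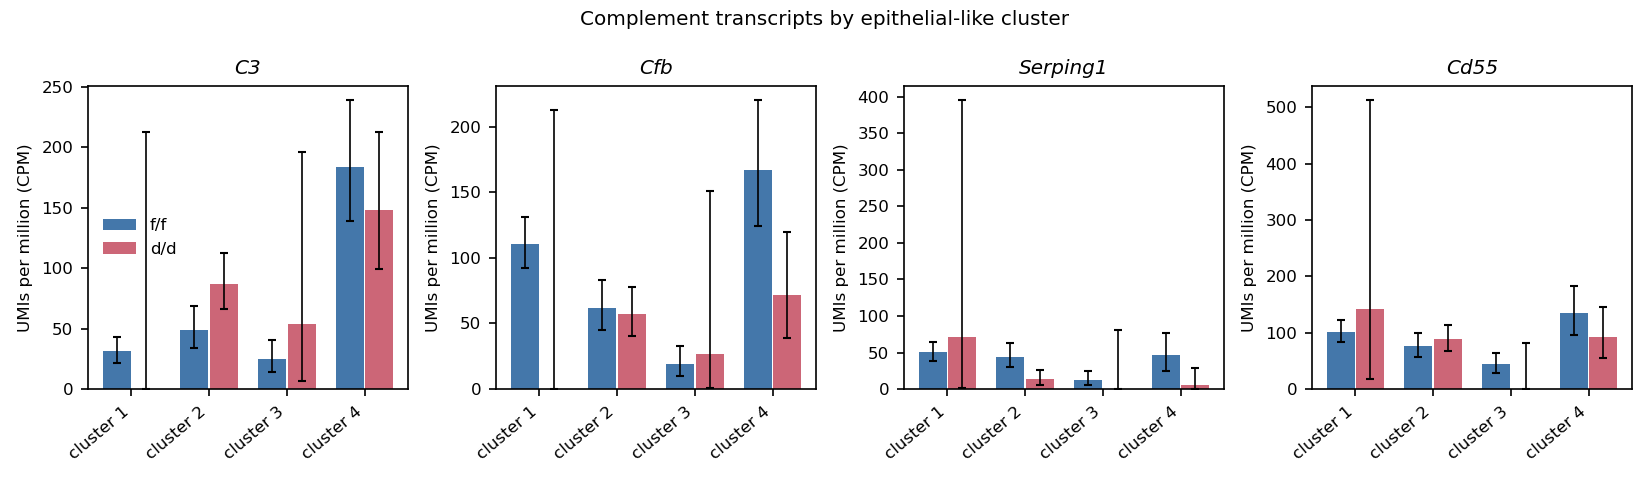
CPM (vertical, linear) of C3, Cfb, Serping1 and Cd55 in 4 epithelial-like clusters of the f/f (blue) and d/d (red) library, with exact 95% Poisson intervals, or the level of 3 counts for a count of 0. Cluster 1 has 19 and cluster 3 has 50 d/d cells, so their red bars rest on 0 to 2 UMIs. C3 and Cfb are highest in f/f cluster 4, and Serping1 is lower in d/d in clusters 2 and 4.

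In myeloid-like cells C1qb was higher in the d/d library, with a log2 ratio of 0.82 (0.40 to 1.23), while C1qa was at 0.26 (-0.54 to 1.02) and C4b at -0.03 (-0.84 to 0.74). The 8 other myeloid markers were at 1382 CPM (f/f) and 1324 CPM (d/d), and the UMIs of the 3 C1q genes per 100 UMIs of these markers were 30.03 and 47.5. A list of 5 dendritic cell markers was at 341 CPM in f/f and 145 CPM in d/d in the same class, and its part in the C1q ratio was not tested. C3 in myeloid-like cells was 64.9 CPM (28 UMIs) in f/f and 140 CPM (27 UMIs) in d/d, a log2 ratio of 1.11 (0.29 to 1.93), and the 6 mesothelial markers were at 46.4 and 130 CPM there. C3 was the 1 of 4 counted members past 2-fold, against 5.28% of 3881 genes, and was at 0.89 among cells with at least 500 detected genes. No member reached 50 UMIs in the stromal-like or endothelial-like clusters.

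**Figure D4:**
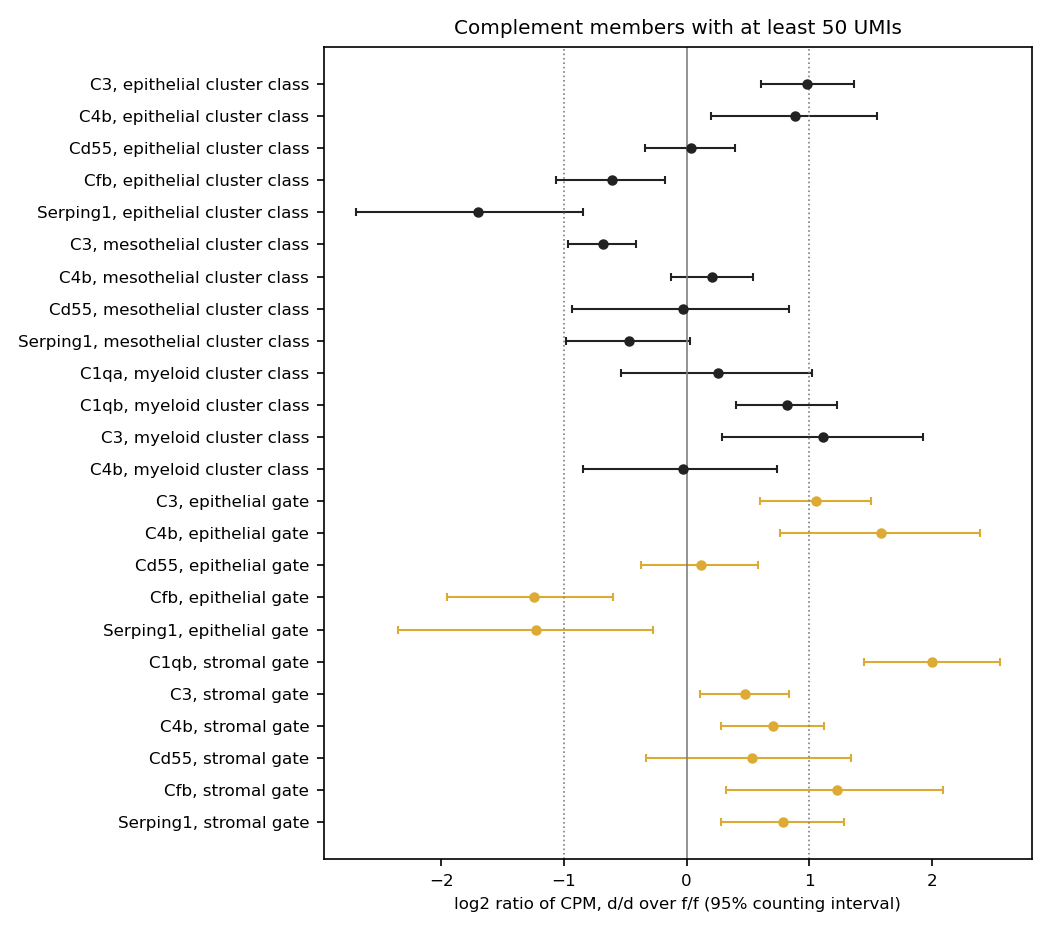
Log2 ratio of CPM, d/d over f/f (horizontal axis), for each complement gene with at least 50 UMIs in a class, with exact conditional 95% counting intervals. Black points are clustered classes and yellow points are cells gated on markers. Dotted lines mark a 2-fold difference. C3 lies left of 0 in mesothelial-like cells and right of 0 in epithelial-like and myeloid-like cells.

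Cells gated one by one on at least 2 markers of a class gave 1459 and 508 epithelial and 1731 and 448 stromal cells, but 31 and 10 mesothelial and 59 and 20 myeloid cells, too few for ratios. In the epithelial gate C3 was 65.2 CPM (106 UMIs) and 136 CPM (71 UMIs), a log2 ratio of 1.06 (0.60 to 1.505). C4b was 17.2 CPM (28 UMIs) and 51.6 CPM (27 UMIs), a log2 ratio of 1.58 (0.76 to 2.40). Outside the cells with a gland marker, C4b was seen in 24 f/f cells (27 UMIs) and 12 d/d cells (27 UMIs). Those were 1.73% and 2.40% of the cells, with overlapping intervals. Cfb was 99.6 CPM (162 UMIs) and 42.0 CPM (22 UMIs), at -1.25 (-1.96 to -0.60), and Serping1 was 44.9 and 19.1 CPM, at -1.23 (-2.35 to -0.27). Cd55 was again alike, at 0.12 (-0.37 to 0.58). Here 4 of the 5 counted members passed 2-fold, which 11.4% of 7816 genes did, and the members' median was 0.12 against -0.01 over all genes. C3 and C4b were the higher in d/d, and Cfb and Serping1 the lower. Each of these 4 kept its direction but fell short of 2-fold under at least 1 alternative. C4b was at 0.66 where the leading class needed 3 times the markers of the next, at 0.67 with cells thinned to 500 UMIs and at 0.89 with clusters in place of gates. C3 was at 0.89 and Cfb at -0.77 with all deposited barcodes, and Serping1 at -0.78 where 3 distinct markers were required.

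In the stromal gate all 6 counted members were higher in the d/d library, and 2 passed 2-fold, C1qb at 34.8 and 139 CPM (57 and 58 UMIs, a log2 ratio of 2.003, 1.45 to 2.56) and Cfb at 19.5 and 45.7 CPM (a log2 ratio of 1.23, 0.33 to 2.09, and 0.88 by the mean of per-cell values). The share of genes past 2-fold in this gate was 6.48% of 8216, and the members' median was 0.75 against -0.07 over all genes. C3 was at 150 and 209 CPM (0.48, 0.11 to 0.84), C4b at 100 and 164 CPM (0.71, 0.28 to 1.12), Serping1 at 69.6 and 120 CPM (0.79, 0.28 to 1.28) and Cd55 at 29.9 and 43.3 CPM (0.53, -0.33 to 1.34). The gate was not pure stroma, since 9.94% of its f/f cells and 21.4% of its d/d cells fell in the mesothelial-like cluster, and 4.91% and 8.48% in the myeloid-like one. Without the cells of those clusters Serping1 was at 0.03 (-1.05 to 0.99) and C3 at 1.03 (0.06 to 1.93), an alternative added after the data had been seen. In the stromal-like cluster itself Serping1 stood at 41.8 and 41.4 CPM (39 and 6 UMIs), a log2 ratio of -0.016 with an interval of -1.55 to 1.23 that also takes in the value of the gate. C1qb in that cluster was at 1.63 (0.50 to 2.67, 25 and 12 UMIs), and Cfb had 4 and 2 UMIs, both below the minimum. The 8 other myeloid markers were at 79.4 and 138 CPM there, and their part in the C1qb ratio was not tested. Over 12 settings, with clusters in place of gates among them, C1qb ranged from 1.63 to 2.52 and Cfb from 0.88 to 1.68.

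Of 52 other complement genes considered, 50 were in the files, and 9 of these had no UMI in the 5 classes (C7, C8a, Colec10, Cpn2, Fcna, Fcnb, Hc, Mbl2 and Vsig4). Hc, the gene of component C5, and C7 belong to the terminal, pore-forming part of the cascade, of which no gene reached 50 UMIs in any class. C2, the partner of C4 in the classical C3-cleaving enzyme, was highest in mesothelial-like cells, at 248 CPM (90 UMIs) and 121 CPM (23 UMIs). With a log2 ratio of -1.03 (-1.76 to -0.36), it was the 1 of 3 counted pathway genes past 2-fold in that class, against 3.91% of 3404 genes. C1s1, a protease of the C1 complex, stood at 207 and 184 CPM in mesothelial-like cells. Clusterin (Clu), an inhibitor of the terminal complex, was at 127 and 132 CPM there and at 66.6 and 70.0 CPM in epithelial-like cells.

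In stromal-like cells, where 9.04% of 5794 genes passed 2-fold, 1 of 3 counted pathway genes did. This was C1s1, higher in d/d, at 92.2 CPM (86 UMIs) and 207 CPM (30 UMIs), a log2 ratio of 1.16 (0.51 to 1.78). Of the other 2, Colec12, a scavenger receptor with a collectin domain, was at 79.4 and 48.2 CPM, and properdin (Cfp), which stabilises the alternative C3-cleaving enzyme, at 57.9 and 55.1 CPM. In epithelial-like cells 1 of 6 passed, against 11.6% of 9146 genes. This was Cfp, at 79.8 CPM (224 UMIs) and 39.1 CPM (38 UMIs), a log2 ratio of -1.03 (-1.56 to -0.53). In myeloid-like cells none of 3 passed, against 5.28% of 3881 genes. C1s1 was at 85.8 and 151 CPM, Itgb2, a subunit of the C3-fragment receptors, at 99.7 and 114 CPM, and Cfp at 90.4 and 83.1 CPM. C3ar1, the receptor of the C3a fragment, had 10 and 17 UMIs in the myeloid-like cells, below the minimum. In the gates none of 3 epithelial and none of 6 stromal pathway genes passed, against 11.4% of 7816 and 6.48% of 8216 genes. Cfp was at -0.81 (-1.51 to -0.18) in the epithelial gate and C1s1 at 0.97 (0.54 to 1.38) in the stromal gate. Among the endothelial-like cells the highest of the list in f/f was Cd93, at 127 CPM (35 UMIs), and 4 UMIs were seen in d/d. Susd4, a membrane inhibitor of the cascade, was at 32.2 CPM (30 UMIs) and 89.6 CPM (13 UMIs) in stromal-like cells, below the minimum.

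**Figure D5:**
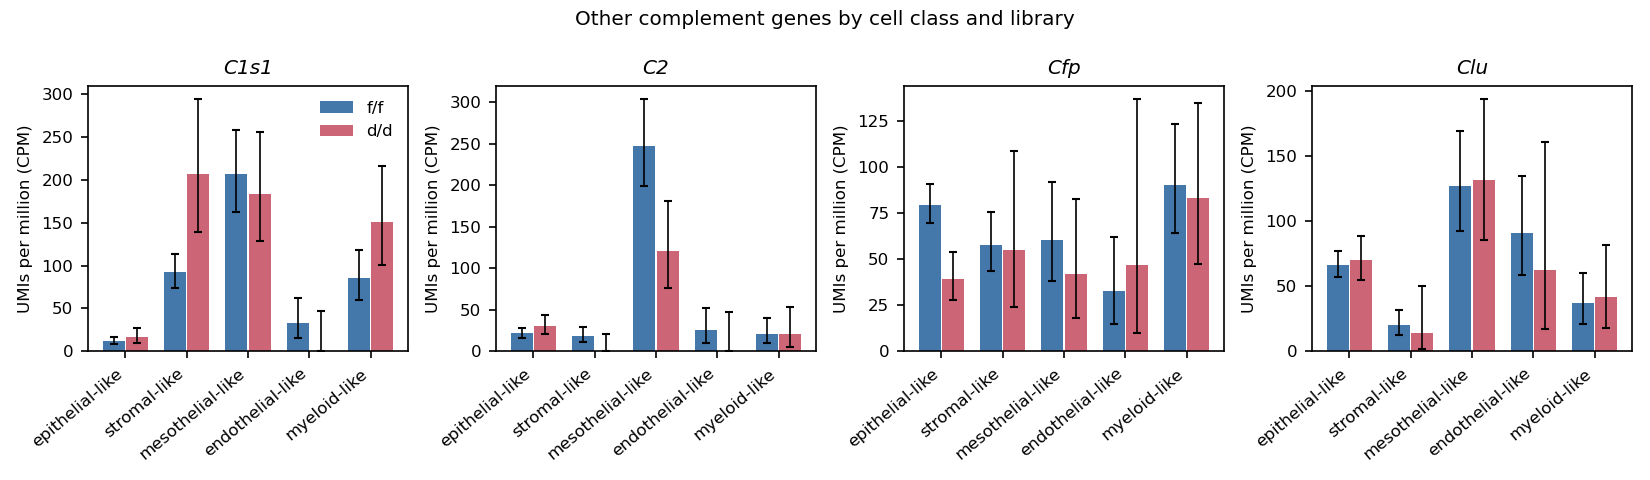
CPM (vertical, linear, its own scale in each panel) of 4 other complement genes in 5 cell classes of the f/f (blue) and d/d (red) library, with exact 95% Poisson intervals, or the level of 3 counts for a count of 0. C2 is highest in mesothelial-like cells, C1s1 is also high in d/d stromal-like cells, and Cfp is lower in d/d than in f/f epithelial-like cells.

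The genes whose levels over the 10 profiles (5 classes in 2 libraries) were most like each member's, of 9383 genes compared, are given as descriptions, since the profiles share libraries and depth. For C3 they were Nherf1 (Pearson r 0.955), Adam33 (0.943) and Myrf (0.940). C4b was most like Phyhd1 (0.954), Mturn (0.947) and Fam117a (0.945), and Serping1 most like Hpgd (0.970), Cys1 (0.957) and Fam117a (0.956). Cfb was closest to Klf3 (0.966), Vtcn1 (0.944) and Ezr (0.944), and Cd55 to Cgn (0.983), Shroom3 (0.976) and Il17re (0.974). Among the C1q genes, C1qb was closest to Apoe (0.964), Cd84 (0.955) and Ctss (0.948), and C1qa to Myo1f (0.942), Tpt1 (0.931) and Apoe (0.923). C1qc and Cfd had under 100 UMIs and were not compared.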

How the data were processed

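The authors' deposited files hold raw UMI counts per gene and barcode for 2 libraries, made with Cell Ranger 9.0.0 as the file headers record and not normalised. The submitters' processing notes name both mm10 and GRCm39, so coordinates printed here come from GENCODE M21 (GRCm38) and RefSeq (GRCm38.p6) by gene symbol and were not read from the files. Depth was 6819591 and 2866862 UMIs. Barcodes with at least 200 genes and at most 10% mitochondrial UMIs were used. No doublet caller was run. In the gates doublets were limited by the required lead, while the clusters that lead the levels had no such limit per cell. For both, an alternative left out the 5% of barcodes with the most UMIs.

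A cell was gated to 1 of 8 classes when it had UMIs of at least 2 markers of that class and at least 2 times the markers of the next class. Of the cells, 37.4% (f/f) and 43.5% (d/d) stayed ungated. Because the gates held few mesothelial and myeloid cells, levels are led by clusters, which had been listed as an alternative to the gates and were moved to the front after the data had been seen. Clusters came from scanpy 1.11.5 with leidenalg 0.10.2 (2000 variable genes without the 9 members, 30 components, 15 neighbours, resolution 1). Of 13 clusters 11 were named, each with at least 3 markers at 50 CPM, a mean relative marker level of 0.3 or more and a margin of 0.15 over the next type. No member is a naming marker.

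UMIs were summed by class and library and divided by the class total (CPM). Sums have exact Poisson, shares exact Clopper-Pearson and ratios exact conditional binomial intervals at 95%, all for counting error only, since 1 library per genotype gives no spread between animals. A count of 0 was given the limit of 3 counts, except in the equal weighting of clusters, where it was entered as 0. The ratio code was tested on simulated data. Named genes are the 9 members, genes of the complement lists past 2-fold with at least 50 UMIs or among the 3 highest in a class, and the 3 genes most like each member on log2(CPM + 10). Beyond this rule, Cd55b, C3ar1 and the pathway genes without UMIs were named after their values had been seen. One listed gene is not reported here. The members and lists were chosen with earlier results of these data known. Other tools were Python 3.11.15, numpy 2.4.6, scipy 1.17.1 and igraph 0.11.9.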

Additional observations from a re-analysis of the deposited data

Results flagged for a closer look

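The C3 ratio of d/d over f/f had opposite signs in different cell classes. It was 0.986 on the log2 scale in epithelial-like and 1.11 in myeloid-like cells, and -0.68 in mesothelial-like cells. The epithelial-like value was 0.16 over clusters 2, 3 and 4 alone, weighted equally. It was 0.83 (0.19 to 1.48) within cluster 2 and -0.31 (-1.01 to 0.36) within cluster 4. Within cluster 3 it was 1.10 (-2.06 to 3.19), on 16 and 2 UMIs. In myeloid-like cells the 6 mesothelial markers stood at 46.4 CPM in f/f and 130 CPM in d/d, and their part in the C3 ratio was not tested. The difference between the classes was not tested, because each class comes from the same 2 libraries.

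The barcodes left out for their mitochondrial share also held complement transcripts. C1qb stood at 115 CPM in the 295 left-out d/d barcodes (133 UMIs, 96.5 to 137), above the 44.6 CPM of the 280 left-out f/f barcodes (58 UMIs, 33.8 to 57.6) and above the 83.5 CPM of the d/d cells used (143 UMIs, 70.4 to 98.4).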

How the results depend on the processing

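Of 121 recomputed log2 ratios in the gates 115 stayed within the counting interval of the reported value, and of 108 in the clustered classes 104 did. Stromal-gate Serping1 went from 0.79 to near parity, at -0.016, with clusters in place of gates. The interval of that value, -1.55 to 1.23, includes 0.79. The ratio was 1.29 when cells were thinned to 500 UMIs. With only clusters 2, 3 and 4, weighted equally, epithelial-like C3 moved from 0.99 to 0.16 and Cd55 from 0.03 to -0.50. Cluster 3 had 0 d/d UMIs of Cd55, entered as 0 CPM, where 3 counts would be 81.2 CPM and f/f stood at 44.1 CPM. A Cd55 difference was thus not detectable in that cluster at this depth. Mesothelial-like C3 stayed between -0.87 and -0.65 over 9 settings, the reported one among them. Over 10 settings counted in the same way, epithelial-like Serping1 stayed between -2.69 and -1.01 and epithelial-like Cfb between -0.80 and -0.56. Myeloid-like C1qb was 1.24 with all deposited barcodes and 0.38 with cells thinned to 500 UMIs. Epithelial-gate C4b was 0.67 when thinned and 0.66 with a lead of 3 times, against 1.58. The causes were not tested. Genes past 2-fold numbered 894 in the epithelial gate, 521 with a minimum of 100 UMIs and 1448 with 20, and in the stromal gate 532, 247 and 1140, since the minimum sets which genes are counted. The alternatives for clustered classes were chosen after seeing the data. No paired analysis was possible because each genotype has 1 library. Depth was low: the median cell had 809 (f/f) or 764.5 (d/d) UMIs, and no member reached 50 UMIs in stromal-like or endothelial-like clusters.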
